A study of Mus musculus with 6 samples.

Results

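The genes described here are 8 genes of cholesterol synthesis and its control, Hmgcs1, Idi1, Fdft1, Sqle, Lss, Cyp51, Insig1 and Srebf2, as measured in purified Paneth cells (PCs) of the mouse small intestine. They were chosen by name as genes under the control of the transcription factor SREBP2 and found by Ensembl identifier, so they are 8 of the 55414 identifiers in the count table. That choice was made with earlier results of these data known. Shares of the 8 set against all genes are therefore description and not an independent test. All mice were C57BL/6J and labelled IFNAR1 KO, which names a knockout of the type I interferon receptor, so the controls carried the knockout too. The mice received either PBS, the saline control, or TNF, a cytokine of inflammation, and PCs were sorted 15 h later, in 3 libraries for each treatment. Nothing in the labels gives a dose, sex, age or batch, and they do not say how many mice a library came from, so p-values measure only the spread between these libraries.

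Cells make cholesterol from acetyl-CoA. The early steps, the mevalonate pathway, end in isoprenoid building blocks, which are joined to squalene, oxidised and closed into the first sterol, and later enzymes trim that sterol to cholesterol. SREBP2, the product of Srebf2, is made as a protein of the endoplasmic reticulum. When sterols are scarce, the escort protein SCAP carries it to the Golgi, where proteases release the part that enters the nucleus and switches on genes of synthesis and uptake. When sterols are plentiful, INSIG proteins hold SCAP and SREBP2 back. SREBP2 also acts on its own gene and on Insig1. PCs secrete antimicrobial proteins such as lysozyme from the base of the crypts.

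Promoter sequences are shown because the 8 genes were grouped by a shared regulator. The windows are the 250 bases before the start of each gene in RefSeq (GRCm38.p6, a different build from the gene positions given below), and 6 of the 8 genes had one, all except Sqle and Fdft1. Printed here are the 2 genes with the largest TNF minus PBS difference, Hmgcs1 and Insig1, and the 2 with the smallest, Cyp51 and Srebf2, a choice made after the values were seen. Capitals mark exact matches, on either strand, to the sterol element TCACNCCA, the E-box CACGTG, the CCAAT box and the GC box GGGCGG. The windows lie at chr13:119690101-119690350 on the plus strand for Hmgcs1, at chr5:28071162-28071411 on the plus strand for Insig1, at chr5:4104698-4104947 on the minus strand for Cyp51 and at chr15:82147019-82147268 on the plus strand for Srebf2.
Hmgcs1: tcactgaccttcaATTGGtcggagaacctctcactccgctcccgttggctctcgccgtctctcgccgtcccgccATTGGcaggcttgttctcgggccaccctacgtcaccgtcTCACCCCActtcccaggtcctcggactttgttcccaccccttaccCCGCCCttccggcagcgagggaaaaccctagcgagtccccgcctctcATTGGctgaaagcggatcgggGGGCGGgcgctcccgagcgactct
Insig1: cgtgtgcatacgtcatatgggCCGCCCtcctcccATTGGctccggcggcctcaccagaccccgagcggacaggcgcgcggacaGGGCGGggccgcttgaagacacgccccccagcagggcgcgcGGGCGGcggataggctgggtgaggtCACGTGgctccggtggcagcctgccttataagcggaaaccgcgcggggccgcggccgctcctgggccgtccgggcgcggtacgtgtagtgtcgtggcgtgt
Cyp51: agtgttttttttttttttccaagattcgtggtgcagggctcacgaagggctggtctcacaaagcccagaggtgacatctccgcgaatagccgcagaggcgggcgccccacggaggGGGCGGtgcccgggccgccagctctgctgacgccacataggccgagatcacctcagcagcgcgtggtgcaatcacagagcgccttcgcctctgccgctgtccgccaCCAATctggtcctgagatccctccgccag
Srebf2: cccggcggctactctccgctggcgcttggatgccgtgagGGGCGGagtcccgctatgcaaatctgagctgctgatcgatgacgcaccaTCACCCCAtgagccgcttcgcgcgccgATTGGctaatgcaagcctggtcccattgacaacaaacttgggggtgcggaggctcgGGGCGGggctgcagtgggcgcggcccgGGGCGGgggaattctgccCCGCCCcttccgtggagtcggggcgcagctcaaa
All 6 windows held a CCAAT box and a GC box, with 9 and 13 matches in all, while 33.9% and 32.7% of all 32851 RefSeq windows of this length held each. Windows were also found for 13 other enzymes of cholesterol synthesis. Of these, 12 held a CCAAT box, 11 a GC box, 1 TCACNCCA and 3 CACGTG, counted over any window of the gene. TCACNCCA was found in Hmgcs1, 137 bases before the start, and in Srebf2, 162 bases before it, and in 3.67% of all windows. CACGTG was found in Insig1 only among the 6, 101 bases before the start, and in 6.02% of all windows. A match describes letters in the window and not a bound site.

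Total counts were 12747484 to 17039511 per library, with 16483 to 18449 genes detected, so that a count of 0 allowed at most 0.146 to 0.255 CPM, depending on the library (counting error only). CPM stands for counts put on a common library total, here after scaling by TMM factors, which ranged from 0.798 to 1.20. The libraries carried the PC marker Lyz1 at 171735 ± 18815 CPM (PBS) and 192595 ± 50799 CPM (TNF; SD, n = 3 each). Ifnar1 was counted in every library, at 5.19 to 9.55 CPM in PBS and 5.18 to 12.7 CPM in TNF, and since the deleted part of the gene is not given, these counts check nothing about the knockout. One TNF library stood apart from the other TNF libraries: on the first principal component, with 48.9% of the variance, the PBS libraries lay at -32.3, -35.8 and -28.7 and TNF replicate 1 at -39.3, against 63.0 and 73.1 for TNF replicates 2 and 3. Results are therefore given with and without TNF replicate 1, where no label sets that library apart and the fit without it has 2 TNF libraries.

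In TNF replicates 2 and 3, each of the 8 genes lay above all 3 PBS libraries, a pattern found in 24.1% of the 13026 genes tested. TNF replicate 1 lay below all 3 PBS libraries in 6 of the 8 genes, all except Idi1 and Insig1, against 26.6% of all genes. Both held for 6 of 8 genes and for 6.37% of all genes. The summed level of the 8 genes was 475, 424 and 441 CPM in the PBS libraries and 312, 1286 and 956 CPM in TNF replicates 1, 2 and 3. With all 6 libraries, 0 of the 8 genes passed an adjusted p of 0.05 in the edgeR quasi-likelihood test, where 0% of all genes did. At an unadjusted p under 0.05, 3 of the 8 (Hmgcs1, Idi1 and Insig1) were higher with TNF, against 8.25% of all genes higher and 4.0% lower. With library size alone as the scaling, the unadjusted calls over all genes turned from 1075 higher and 521 lower to 540 higher and 731 lower, and 3 of the 8 genes were below 0.05. DESeq2 (1.86% of all genes passed) and limma-voom also passed 0 of the 8. Limma-voom with sample weights passed 5 of the 8, all higher, against 7.06% of all genes higher, and edgeR without a low-count filter passed 5, against 2.10% higher and 2.94% in either direction. All 8 log2 fold changes were above 0, as were 50% of all genes, and their median was 0.97, against -5.87e-04 over all genes tested. None of the 8 had all 3 TNF values on one side of all PBS values, which 9.07% of all genes had above and 7.82% below. With PBS replicate 2 left out, 1 of the 8 (Idi1) had all TNF values above all PBS values, against 12.3% of all genes.

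Without TNF replicate 1, 7 of the 8 genes rose past an adjusted p of 0.05, where 9.10% of 13660 genes did so upward and 5.40% downward. The gene that did not pass was Srebf2. The median log2 fold change of the 8 was then 1.43. All 8 had both remaining TNF values above all PBS values, as did 24.9% of all genes, which restates the library pattern given above. TNF replicate 1 was set apart by its place on a principal component of these same counts. The adjusted p values without TNF replicate 1, here and below, therefore follow a choice made from the data and are not an independent test. In bulk samples, fewer cells of a type and less RNA per cell cannot be told apart.

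**Figure D1:**
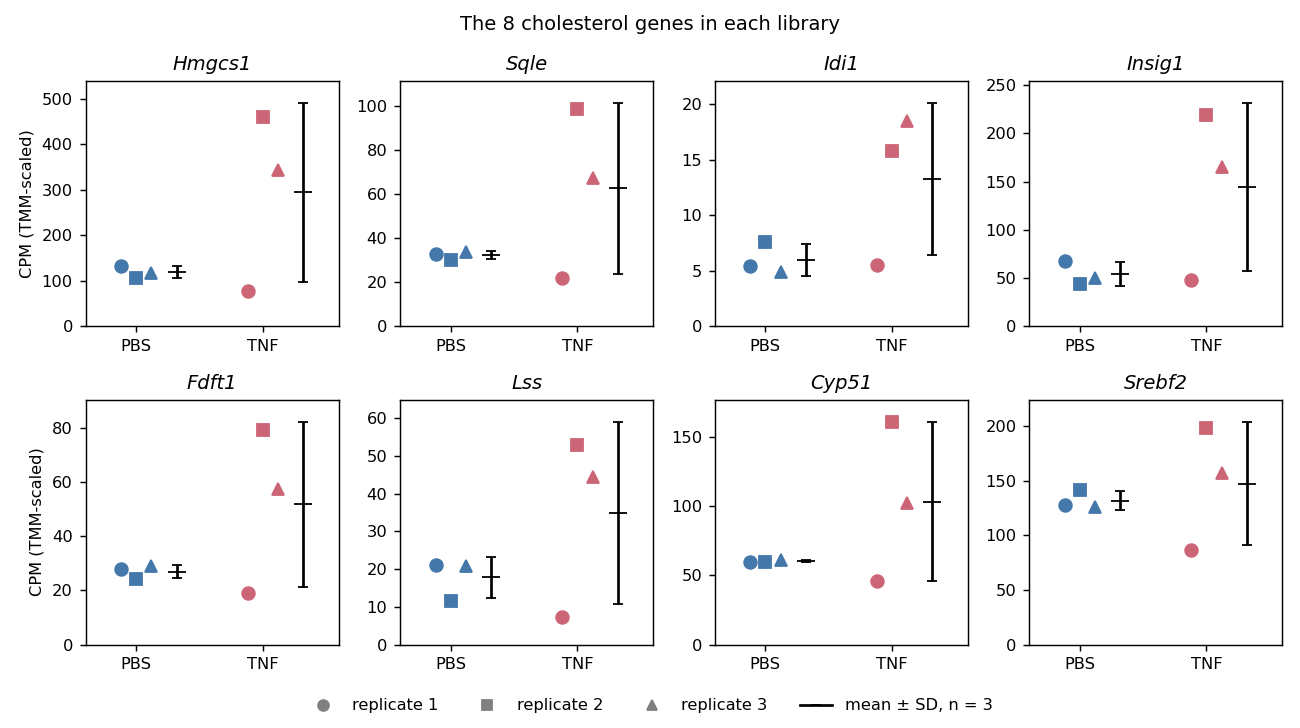
Level of each of the 8 genes in CPM (TMM-scaled; linear axis from 0, with its own scale per gene) in the PBS and TNF libraries; marker shapes give the replicate number and the bar the mean ± SD (n = 3). TNF replicates 2 and 3 sit above all PBS points in all 8 panels, and TNF replicate 1 sits below all PBS points in 6.

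Srebf2 and Insig1 encode the regulator and one of its inhibitors. Srebf2 (ENSMUSG00000022463, chr15:82031382-82093201, plus strand; gene positions are GRCm39 throughout) measured 128, 141 and 126 CPM with PBS and 86.3, 198 and 157 CPM with TNF. The TNF libraries lay on both sides of the PBS values. The group means of 132 ± 8.48 and 147 ± 56.5 CPM (SD, n = 3) differed by less than the TNF spread. Both points held also for Hmgcs1, Sqle, Fdft1, Lss and Cyp51. For Srebf2 the log2 ratio of TNF to PBS was 0.16 (SE 0.30, adjusted p = 0.855 in edgeR), and 0.45 (SE 0.21, adjusted p = 0.182) without TNF replicate 1. It was -0.14 (SE 0.29, adjusted p = 0.920) when TNF replicate 2 was left out, so the sign rested on that library.

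Insig1 (ENSMUSG00000045294, chr5:28276315-28283668, plus strand), whose protein holds SREBP in the endoplasmic reticulum, measured 67.8, 43.8 and 49.96 CPM with PBS and 48.2, 219 and 165 CPM with TNF. TNF replicate 1 lay among the PBS values, and the other TNF libraries were 4.06 and 3.07 times the PBS mean. Its log2 fold change was the largest of the 8, 1.42 (SE 0.47, adjusted p = 0.306 in edgeR), and 1.85 (SE 0.24, adjusted p = 5.51e-04) without TNF replicate 1. It is the one gene of the 8 that shares no exonic base with another annotated gene.

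Hmgcs1 and Idi1 belong to the mevalonate pathway. Hmgcs1 (ENSMUSG00000093930, chr13:120151915-120170470, plus strand) encodes HMG-CoA synthase, an early enzyme of the pathway, and measured 132, 106 and 116 CPM with PBS and 77.8, 461 and 343 CPM with TNF. Its 2 highest libraries were 3.91 and 2.91 times the PBS mean, while TNF replicate 1 was the lowest of the 6. On the log2 scale, TNF minus PBS was 1.32 (SE 0.52, adjusted p = 0.361 in edgeR), and 1.79 (SE 0.23, adjusted p = 5.34e-04) without that library.

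Idi1 (ENSMUSG00000058258, chr13:8935537-8942487, plus strand) encodes the isomerase that interconverts the isoprenoid building blocks. It was the scarcest of the 8, with 65 to 323 counts per library, at 5.41, 7.61 and 4.85 CPM with PBS and 5.52, 15.8 and 18.4 CPM with TNF. It was the one gene of the 8 in which TNF replicate 3 was the highest library, and TNF replicate 1 lay among the PBS values. The edgeR log2 fold change was 1.15 (SE 0.43, adjusted p = 0.341 in edgeR), and 1.54 (SE 0.28, adjusted p = 0.00400) without TNF replicate 1. The annotation holds 5 pseudogenes named for Idi1, and since it is not given how multi-mapping reads were handled, the counts of Idi1 are uncertain.

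Fdft1 and Sqle make and oxidise squalene. Fdft1 (ENSMUSG00000021273, chr14:63382189-63417027, minus strand), squalene synthase, measured 27.8, 24.2 and 28.9 CPM with PBS and 19.0, 79.2 and 57.4 CPM with TNF. The PBS libraries were close together and TNF replicate 1 lay under all of them. The fitted log2 difference was 0.95 (SE 0.42, adjusted p = 0.409 in edgeR), and 1.36 (SE 0.21, adjusted p = 0.00145) without TNF replicate 1. Fdft1 shares 1184 exonic bases with the opposite-strand gene Ctsb, which encodes the lysosomal protease cathepsin B. Ctsb, named for this overlap after its values were seen, measured 177, 149 and 142 CPM with PBS and 179, 430 and 324 CPM with TNF, so it too was high in TNF replicates 2 and 3. As a log2 fold change this was 1.00 (SE 0.32, adjusted p = 0.300 in edgeR), and 1.30 (adjusted p = 0.00362) without TNF replicate 1, close to the values of Fdft1. Whether the counting used strand is not given, so reads of both genes in the shared bases cannot be told apart.

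Sqle (ENSMUSG00000022351, chr15:59186869-59203043, plus strand), squalene epoxidase, a rate-limiting enzyme of the later pathway, measured 32.8, 30.2 and 33.7 CPM with PBS and 21.6, 98.5 and 67.3 CPM with TNF. TNF replicates 2 and 3 were 3.06 and 2.09 times the PBS mean and TNF replicate 1 was 0.670 times that mean. In edgeR the log2 fold change was 0.96 (SE 0.44, adjusted p = 0.423 in edgeR), and 1.38 (SE 0.21, adjusted p = 0.00142) without TNF replicate 1. Sqle shares 470 exonic bases with the opposite-strand gene Washc5, which lay at 18.7 to 25.8 CPM in PBS and 19.2 to 36.6 CPM in TNF.

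Lss and Cyp51 act on the ring. Lss (ENSMUSG00000033105, chr10:76367298-76392976, plus strand), lanosterol synthase, which closes the sterol rings, measured 21.1, 11.4 and 20.7 CPM with PBS and 7.39, 52.8 and 44.4 CPM with TNF. It had the largest relative spread of the 8 in both groups, with a coefficient of variation of 31.0% in PBS and 69.3% in TNF. The log2 ratio of TNF to PBS was 0.98 (SE 0.58, adjusted p = 0.518 in edgeR), and 1.47 (SE 0.26, adjusted p = 0.00379) without TNF replicate 1.

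Cyp51 (ENSMUSG00000001467, chr5:4123416-4154751, minus strand), lanosterol demethylase, measured 60.1, 60.0 and 61.4 CPM with PBS and 46.3, 161 and 103 CPM with TNF. The PBS libraries differed by a coefficient of variation of 1.32%, the smallest of the 8, and the TNF libraries by 55.6%. On the log2 scale, TNF minus PBS was 0.77 (SE 0.38, adjusted p = 0.441 in edgeR), and 1.15 (SE 0.22, adjusted p = 0.00612) without TNF replicate 1. Cyp51 shares 1253 exonic bases with the opposite-strand gene Akap9, named for this overlap, whose CPM of 135, 265 and 187 in PBS and 175, 174 and 178 in TNF did not follow that order.

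Compared per length (CPM per kilobase of the canonical transcript), the PBS levels ran from 28.8 ± 3.22 for Hmgcs1 and 25.9 ± 1.67 for Srebf2 through 19.7 ± 4.55 for Insig1, 12.2 ± 0.160 for Cyp51, 11.5 ± 0.648 for Sqle and 7.77 ± 0.703 for Fdft1 to 2.78 ± 0.861 for Lss and 2.30 ± 0.563 for Idi1 (SD, n = 3). In this order the PBS ranges of Hmgcs1 and Srebf2, of Srebf2 and Insig1 and of Lss and Idi1 overlapped, and those of the other neighbours did not. Hmgcs1 stood at percentile 92.7 of all genes tested and Idi1 at percentile 36.9. When all annotated exons gave the length, Fdft1 moved above Sqle and Idi1 above Lss.

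The other enzymes of the pathway were a list of 16 genes, all tested. With all 6 libraries 0 of 16 passed, 13 had a log2 fold change above 0 and the median was 0.59. Without TNF replicate 1, 10 rose and 1 fell past an adjusted p of 0.05 in edgeR, against 9.10% and 5.40% of all genes, and the median was 0.96. TNF replicates 2 and 3 lay above all PBS libraries in 10 of the 16, against 24.1% of all genes. Per-library medians against the PBS mean were -0.25, 1.14 and 0.75 on the log2 scale in TNF replicates 1, 2 and 3, and -0.53, 1.58 and 1.23 for the 8 genes.

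Mvd, which makes isopentenyl diphosphate, measured 6.06, 4.41 and 4.996 CPM with PBS and 5.86, 22.7 and 17.6 CPM with TNF, with a log2 fold change of 1.58 (SE 0.45, adjusted p = 0.278 in edgeR). Fdps, farnesyl diphosphate synthase, was scarce, at 1.51, 1.07 and 0.808 CPM with PBS and 1.53, 6.41 and 5.07 CPM with TNF. Its TNF values all lay above its PBS values, TNF replicate 1 only just, and the log2 fold change was 1.94 (SE 0.62, adjusted p = 0.297 in edgeR).

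Of the enzymes that trim the sterol, Msmo1, which removes methyl groups, measured 37.1, 37.0 and 38.9 CPM with PBS and 30.4, 169 and 141 CPM with TNF. Its log2 fold change of 1.59 (SE 0.50, adjusted p = 0.297 in edgeR) became 2.06 (SE 0.19, adjusted p = 7.87e-05) without TNF replicate 1. Sc5d, a desaturase of a late step, measured 39.0, 37.6 and 51.8 CPM with PBS and 32.2, 157 and 173 CPM with TNF, and its log2 fold change was 1.496 (SE 0.51, adjusted p = 0.318 in edgeR). Both had TNF replicate 1 below all PBS libraries and the other TNF libraries far above them. The one gene of the 16 that fell past the threshold without TNF replicate 1, Tm7sf2, named after its values were seen, encodes a sterol reductase whose reaction Lbr also carries out. It measured 9.88, 11.3 and 15.4 CPM with PBS and 11.6, 5.92 and 5.88 CPM with TNF, low where the 8 genes were high, with a log2 fold change of -0.65 (SE 0.34, adjusted p = 0.472 in edgeR), and -1.03 (SE 0.30, adjusted p = 0.0392) without TNF replicate 1.

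**Figure D2:**
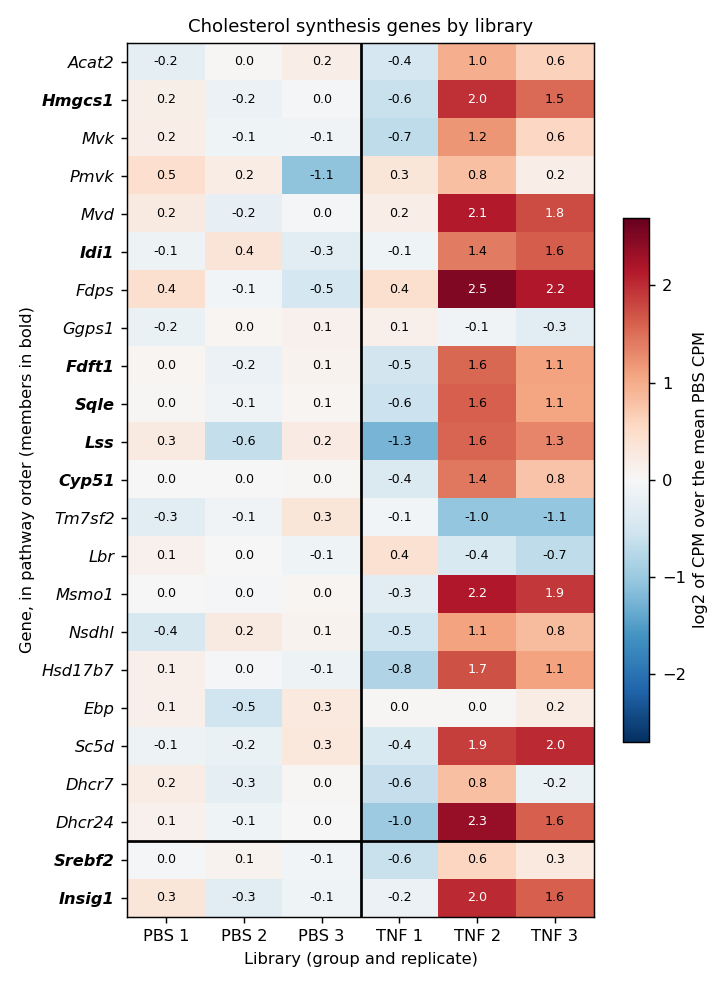
Synthesis genes in pathway order, with Srebf2 and Insig1 under the line and the 8 genes in bold; cells give the log2 of CPM over the mean PBS CPM, with columns for the 6 libraries. Most rows are pale in PBS and TNF replicate 1 and red in TNF replicates 2 and 3, and Tm7sf2 and Lbr are blue in TNF replicates 2 and 3.

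Uptake and transport of cholesterol were covered by 12 genes, all tested. With all 6 libraries 0 of 12 passed, 9 had a log2 fold change above 0 and the median was 0.57. Without TNF replicate 1, 6 rose past the threshold, against 9.10% of all genes.

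Lrp8, a lipoprotein receptor, had all TNF values above all PBS values, at 0.793, 0.400 and 0.588 CPM with PBS and 1.61, 5.48 and 5.23 CPM with TNF. As a log2 fold change this was 2.78 (SE 0.64, adjusted p = 0.270 in edgeR), and 3.18 (SE 0.55, adjusted p = 0.00318) without TNF replicate 1. Stard4, a sterol carrier of the cytosol, measured 51.9, 51.9 and 58.0 CPM with PBS and 56.7, 123 and 122 CPM with TNF, so TNF replicate 1 lay within the PBS range. In edgeR the log2 fold change was 0.90 (SE 0.30, adjusted p = 0.308 in edgeR). Scarb1, a receptor for high-density lipoprotein, measured 2.38, 4.34 and 4.70 CPM with PBS and 2.89, 13.0 and 9.58 CPM with TNF, with a log2 fold change of 1.16 (SE 0.53, adjusted p = 0.422 in edgeR).

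**Figure D3:**
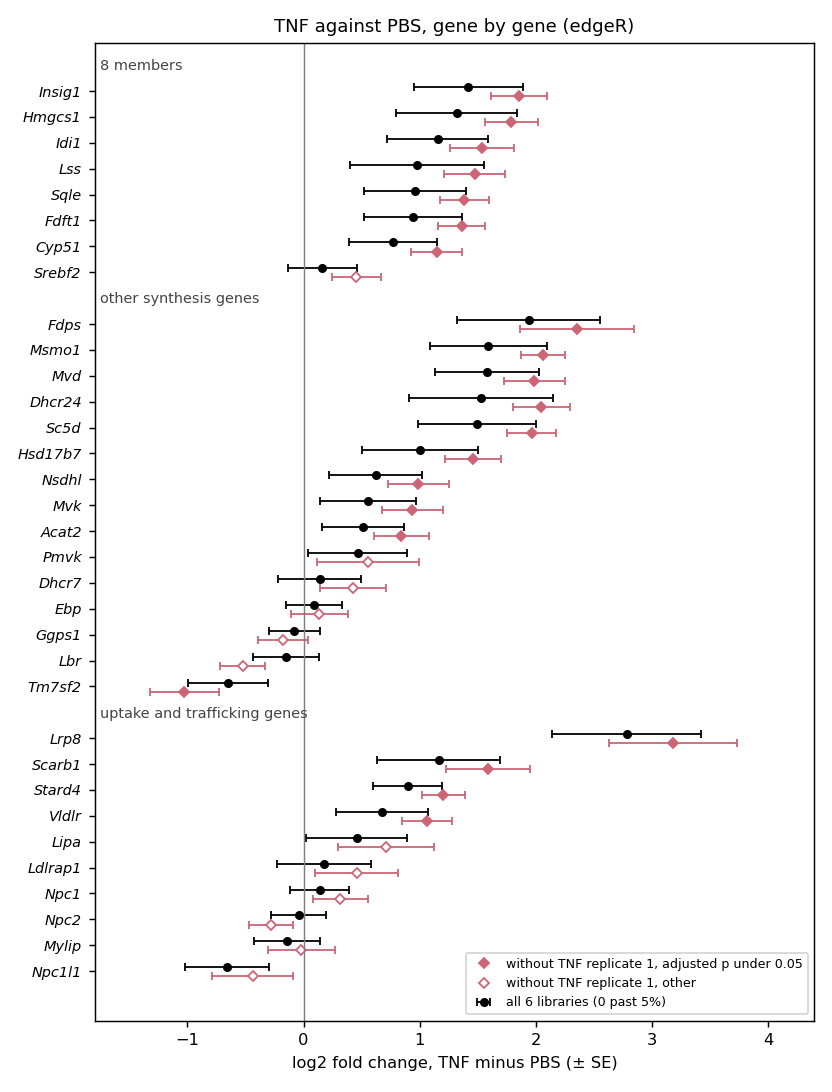
Log2 fold change, TNF minus PBS, with bars of ± SE, for the 8 genes, 15 of the 16 other synthesis genes and 10 of the 12 uptake and trafficking genes. Black circles use all 6 libraries, where none passed an adjusted p of 0.05 in edgeR. Red diamonds leave out TNF replicate 1, filled where the adjusted p was under 0.05 (7, 10 and 4 of those drawn). Of the filled genes Tm7sf2 fell and the others rose. The 3 genes of these lists that are not drawn all rose past that threshold.

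The machinery that controls SREBP was a list of 12 genes, all tested, and 0 passed with all 6 libraries. The median log2 fold change was 0.08, with 7 genes above 0. Without TNF replicate 1 it was 0.28, with 1 gene risen (Scap) and 1 fallen (Mbtps1), against 9.10% and 5.40% of all genes. Scap measured 50.2, 35.5 and 35.4 CPM with PBS and 28.9, 78.8 and 63.0 CPM with TNF, with TNF replicate 1 lowest and TNF replicate 2 highest, and had a log2 fold change of 0.50 (SE 0.34, adjusted p = 0.582 in edgeR) and of 0.83 (SE 0.22, adjusted p = 0.0262) without TNF replicate 1. Mbtps1, the site-1 protease that makes the first cut in SREBP, measured 58.3, 59.3 and 59.1 CPM with PBS and 45.1, 30.1 and 33.3 CPM with TNF. All its TNF values lay under all PBS values, and the log2 fold change was -0.71 (SE 0.21, adjusted p = 0.288 in edgeR), and -0.88 (SE 0.19, adjusted p = 0.0101) without TNF replicate 1.

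Insig2, the second INSIG gene, measured 17.9, 14.3 and 16.5 CPM with PBS and 16.3, 13.9 and 17.7 CPM with TNF, and the groups covered the same range. The log2 ratio of TNF to PBS was -0.02 (SE 0.22, adjusted p = 0.977 in edgeR), where that of Insig1 was 1.42. Srebf1, which encodes the SREBP1 forms that act mainly on fatty acid synthesis, measured 44.1, 30.2 and 38.7 CPM with PBS and 27.3, 51.9 and 44.8 CPM with TNF, with a log2 fold change of 0.14 (SE 0.27, adjusted p = 0.867 in edgeR). Among ubiquitin ligases of the sterol sensing machinery, Rnf139 had all TNF values (32.4, 40.9 and 42.8 CPM) above all PBS values (29.5, 31.4 and 28.4 CPM), with a log2 fold change of 0.38 (SE 0.20, adjusted p = 0.471 in edgeR). Rnf145 had a log2 fold change of -0.39 (SE 0.26, adjusted p = 0.564 in edgeR).

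Efflux and storage of cholesterol were covered by 10 genes, of which 9 were tested. None of the 9 passed the threshold in edgeR with all 6 libraries (0 at an unadjusted p under 0.05 higher and 1 lower) or without TNF replicate 1, and the median log2 fold change was 0.26 and -0.12 in these fits. Abca1, the transporter that loads cholesterol onto apolipoprotein A-I, was the gene at an unadjusted p under 0.05. It measured 4.54, 9.34 and 12.3 CPM with PBS and 4.16, 4.16 and 4.11 CPM with TNF, so all TNF values lay under all PBS values and the PBS libraries varied widely. On the log2 scale, TNF minus PBS was -1.08 (SE 0.39, adjusted p = 0.334 in edgeR). Soat2, which esterifies cholesterol, had a log2 fold change of 0.71 (SE 0.46, adjusted p = 0.556 in edgeR), Abcg1 of -0.80 (SE 0.53) and Abcg5 of 0.53 (SE 0.44), the last 2 being sterol transporters with adjusted p values of 0.566 and 0.661. Ch25h, the cholesterol 25-hydroxylase, was too scarce to test, with 3 counts (0.255 CPM) in TNF replicate 1 and none elsewhere.

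Among the 8 genes, Fdft1 and Sqle ran closest to the mean profile of the set (log2 CPM of each gene minus its own mean over the 6 libraries, averaged over the 8), with root-mean-square distances of 0.0594 and 0.0699 on the log2 scale. Srebf2 was farthest, at 0.437, followed by Lss at 0.375 and Idi1 at 0.327. The mean profile stood at -0.27, -0.46 and -0.36 in the PBS libraries and at -0.87, 1.16 and 0.80 in the TNF libraries. Of 9759 other genes at or above 2 in average log2 CPM, the 7 nearest were Tmem229b (0.0886), Itga3 (0.0954), Ermp1 (0.109), Mvb12b (0.113), Egfr (0.115), Dtx3l (0.118) and Sh3bgrl2 (0.119), none of them in the 5 pathway lists. Itga3, an integrin subunit, measured 42.3, 34.4 and 36.7 CPM with PBS and 27.5, 96.3 and 91.7 CPM with TNF, and Egfr, the receptor of epidermal growth factor, 17.2, 16.2 and 14.8 CPM with PBS and 13.2, 44.7 and 38.5 CPM with TNF. Likeness over 6 libraries in which 2 lie far from 4 describes that split.

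Summed markers of enterocytes, stem cells, proliferation and goblet cells were lower in TNF replicates 2 and 3 than in the PBS libraries, by unlike amounts. The summed CPM of 12 enterocyte markers was 394 to 473 in PBS and 426, 138 and 105 in TNF replicates 1, 2 and 3. Without TNF replicate 1, 8 of 12 fell past the threshold in edgeR. In that fit, to which the counts of fallen markers below also belong, 5.40% of all genes fell. The 10 stem cell markers summed to 2919 to 3577 CPM in PBS and 5041, 1195 and 1020 CPM under TNF, and 5 of 10 fell without TNF replicate 1. Olfm4 set most of the change in that sum, at 2374, 2224 and 1925 CPM with PBS and 3887, 233 and 272 CPM with TNF. The median of the 10 against the PBS mean was -0.99 and -0.95 on the log2 scale in TNF replicates 2 and 3. With all 6 libraries 1 of the 10 (Slc12a2) had a log2 fold change above 0. The 10 proliferation genes summed to 246 to 401 CPM in PBS and 319, 133 and 140 CPM under TNF, and 5 of 10 fell. For 8 goblet cell markers the sums were 12406 to 13665 CPM in PBS and 15822, 7917 and 12066 CPM under TNF, and 5 of 8 fell. TNF replicate 3 thus lay close under the PBS range. With all 6 libraries 6 of the 8 had a log2 fold change below 0 and 2 above. Muc2, named after its values were seen, was highest in TNF replicate 2, at 1481, 1860 and 1110 CPM with PBS and 888, 2580 and 1440 CPM with TNF. The 8 PC markers summed to 388329 to 476220 CPM in PBS and 651791, 282478 and 455526 CPM under TNF. This sum, mostly Lyz1 and Defa24, was largest in TNF replicate 1 and smallest in TNF replicate 2. Among the TNF libraries that was opposite to the order of the summed 8 cholesterol genes. Among the PBS libraries both sums were largest in replicate 1 and smallest in replicate 2. The PC markers did not all share the order of their sum. With all 6 libraries 4 of the 8 had a log2 fold change above 0 and 4 below. Mmp7, named after its values were seen, measured 5576, 5967 and 6895 CPM with PBS and 12883, 7463 and 13712 CPM with TNF. Without TNF replicate 1, 1 of the 8 fell. The part of these marker lists in the cholesterol gene result was not tested.

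As for the lists above, sums of the other marker lists overlapped between the groups when all TNF libraries were counted. Tuft cell markers summed to 469 to 1655 CPM in PBS and 590 to 1143 CPM in TNF, enteroendocrine markers to 48.1 to 127 and 38.4 to 123 CPM, and immune markers to 22.4 to 55.1 and 35.8 to 45.2 CPM, with Jchain at 0 in all libraries. Stromal and endothelial markers summed to at most 0.667 CPM in any library, with Col1a2, Cdh5 and Kdr at 0 in all. In these 4 lists, of which 3 immune genes and no stromal gene were abundant enough to test, 0 genes passed with all 6 libraries or without TNF replicate 1 in edgeR, and 0 had an unadjusted p under 0.05 with all 6.

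**Figure D4:**
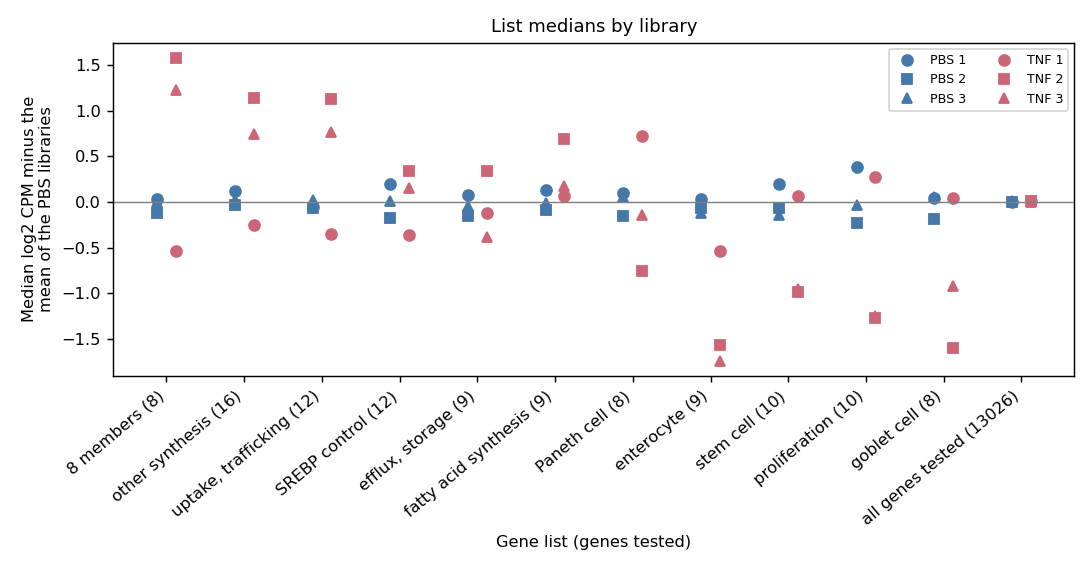
Median over each list's tested genes (number in brackets) of log2 CPM minus the mean of the PBS libraries, for each library; colour gives the group and shape the replicate number. The 8 cholesterol genes lie at -0.53, 1.58 and 1.23 in TNF replicates 1, 2 and 3, and the enterocyte, stem cell, proliferation and goblet cell lists lie below the PBS libraries in TNF replicates 2 and 3.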

How the data were processed

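The deposited table holds raw counts per Ensembl gene, 1 column per library, made by the authors from single-end Element AVITI reads of total RNA. The submitters' processing notes name FastQC, Trimmomatic 0.39, STAR 2.7.10a, DESeq2 and build mm39, without roles; not given in the sources used here are the counting tool, the annotation, strand use and how multi-mapping reads were handled. Groups and replicate numbers came from the labels. Identifiers were matched to GENCODE on GRCm39 (54749 of 55414; the rest held 0.0193% of the counts).

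TNF was compared with PBS in R 4.3.3 with the two-sided quasi-likelihood test of edgeR 4.0.16, TMM factors, filterByExpr (minimum count 10, minimum total 15) and group as the only term. Benjamini-Hochberg adjustment ran over all 13026 genes kept, which held 99.8% of the counts, and the threshold was an adjusted p of 0.05. SE is the log2 fold change over the square root of F. Log2 CPM used a prior count of 2. In 15 alternatives the scaling, the filter, the tool (DESeq2 1.42.0, limma 3.58.1), a replicate block and the left-out library were varied. Within groups no pair of libraries agreed within sampling noise.

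The 8 genes and all lists were chosen with earlier results of these data known. Named were the 8, for each list the genes past the threshold (else the 4 with the smallest unadjusted p), pathway genes and 2 checks set by name, and the most alike genes. Some genes that this rule names are counted in their lists but not reported here one by one. Others are marked as chosen after their values were seen.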

Additional observations from a re-analysis of the deposited data

How the results depend on the processing

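Over 15 alternatives, 7 of the 8 genes kept a log2 fold change above 0 in all 15 and Srebf2 in 14, the exception being -0.14 without TNF replicate 2 (0.45 without TNF replicate 1). The edgeR fit without a low-count filter passed 690 genes (2.94% of 23434), 5 of the 8 (Hmgcs1, Sqle, Insig1, Fdft1 and Lss) and 9 of the other cholesterol genes. DESeq2 passed 242 genes (1.86%), 0 of the 8 and 3 of the 49 other cholesterol genes. Limma-voom with sample weights, which lets libraries count unequally, passed 1501 genes (11.5%), 5 of the 8 (Hmgcs1, Sqle, Idi1, Insig1 and Fdft1) and 10 of the others. Leaving out each library in turn gave 0 to 1980 genes, 0 to 7 of the 8 and 0 to 19 of the others past the threshold, and 0 to 8 of the 8 without overlap between groups. The upper end of each range came without TNF replicate 1, and without PBS replicate 2 the groups did not overlap for 1 of the 8 (12.3% of all genes were then higher in all TNF libraries). Why these settings differ was not tested, beyond the fewer libraries and the unequal weights that they use. Adjusted p values over the alternatives ran from 5.34e-04 to 0.919 for Hmgcs1, from 1.01e-04 to 0.897 for Insig1 and from 0.182 to 0.991 for Srebf2. With library size alone the median of all genes moved to -0.11, and the 8 genes lay 0.23 to 1.55 above it. Same-numbered libraries of the groups did not deviate together (correlations of -0.01, -0.07 and 0.03), so the numbers were not taken as pairs, and with the replicate number as a block 0 genes and 0 of the 8 passed, with 1395 genes at an unadjusted p under 0.05. Depth limits the scarce genes, of which Idi1 rested on 65 to 323 counts per library.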

Other observations

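Of 10 listed genes of fatty acid synthesis, which SREBP1 mainly controls, 9 were tested, Scd1 being too scarce, and 0 passed with all 6 libraries in edgeR (1 at an unadjusted p under 0.05). The median log2 fold change was 0.25, and 0.57 without TNF replicate 1, where 3 genes rose (Me1, Elovl6 and Fasn) and 2 fell (Fads1 and Fads2, fatty acid desaturases, named after their values were seen). Over all genes, 9.10% rose and 5.40% fell in that fit. Me1, the cytosolic malic enzyme, which supplies NADPH, measured 1.37, 0 and 1.40 CPM with PBS and 2.89, 18.9 and 16.3 CPM with TNF, so all TNF values lay above all PBS values. The edgeR log2 fold change was 3.79 (SE 0.97, adjusted p = 0.270 in edgeR), and 4.28 (SE 0.68, adjusted p = 0.00200) without TNF replicate 1. Fasn, fatty acid synthase, measured 110, 102 and 88.7 CPM with PBS and 76.1, 199 and 161 CPM with TNF, the library pattern of the cholesterol genes, with a log2 fold change of 0.54 (SE 0.33, adjusted p = 0.531 in edgeR). Elovl6, an elongase, had a log2 fold change of 0.65 (SE 0.36, adjusted p = 0.488 in edgeR), and Acly, which makes cytosolic acetyl-CoA, of 0.40 (SE 0.26, adjusted p = 0.560). Fads1 and Fads2 stood at -1.19 (adjusted p = 0.0147) and -1.12 (adjusted p = 0.00418) without TNF replicate 1 in edgeR.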
